A study of Rattus norvegicus with 12 samples.

Results

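The genes described are those of the extracellular matrix of the lung, of matrix metalloproteinases and their inhibitors, of the ADAM family, and of the integrins that bind cells to the matrix. They were chosen by gene symbol alone: symbols starting with Col and a digit, with Mmp, Timp or Adam, with Lam, a chain letter and a digit, or with Itga or Itgb and a digit (without Itgb2), and Fn1, Eln, Spp1, Dcn, Lum, Bgn, Sparc and Lox. The rule gave 62 of the 4736 genes that had a probe set with a single symbol. They are 15 collagens, 6 laminin chains, 8 matrix glycoproteins and proteoglycans and 12 matrix metalloproteinases. The others are 3 tissue inhibitors of metalloproteinases, 10 genes of the ADAM family and 8 integrin chains. The 62 genes were covered by 89 probe sets, and 15 of the genes had more than 1. Each gene is represented by its probe set of strongest mean signal, and for 12 of the 62 this lay in the lowest 25% of all probe sets (dim, in what follows).

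Lung RNA of male Sprague-Dawley rats of 300 to 420 g was hybridised to 12 one-colour Affymetrix RG-U34A arrays, 3 per group. T/HS rats had trauma, made by a laparotomy, and hemorrhagic shock, in which blood was drawn to hold the arterial pressure at 30 mmHg for 90 min and was then returned. T/HS-LDL rats had the same after the mesenteric lymph vessels had been tied off and divided (lymph duct ligation), T/SS-LDL rats had the ligation and laparotomy with sham shock, and T/SS rats had the laparotomy with sham shock and an open lymph duct. All groups thus share the laparotomy and the cannulation of artery and vein, and lungs were taken 3 h after the 90 min period, 4.5 h after its start. The series text states that T/HS lungs were injured and that lungs of the other groups were not.

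In every group 1 pair of the 3 arrays was nearly the same measurement. Log2 differences between the arrays had a robust SD of 0.00993 to 0.0548 in these 4 pairs, whereas for the 8 remaining within-group pairs it was 0.164 to 0.232. Each such pair was averaged, which left 8 samples, 2 per group: replicates 1 and 3 as 1 sample beside replicate 2 in T/HS, T/HS-LDL and T/SS-LDL, and replicates 2 and 3 beside replicate 1 in T/SS. Within a group, the averaged sample's value is given before that of the single array. Values are log2 of the deposited intensity, errors of differences are standard errors from limma, and adjusted p-values follow Benjamini and Hochberg over 8740 probe sets. The median intensity of an array was 651 to 680, and all 9 measured markers of lung epithelium, of 10 named, lay at or above the 91.2th percentile of signal. Nothing in the labels says more than that the arrays are biological replicates, so p-values measure only the spread between these samples. Whole lung was measured, and fewer cells of a type and less RNA per cell cannot be told apart.

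The extracellular matrix is the scaffold of proteins around cells. In the lung, fibres of collagen and elastin carry the mechanical load of breathing, and thin basement membranes built of type IV collagen and laminins separate the alveolar epithelium from the capillaries. Matrix metalloproteinases cut these proteins, and the tissue inhibitors of metalloproteinases block these enzymes. Some of the ADAM family, among them Adam10 and Adam17, shed proteins from cell surfaces. Integrins are paired surface receptors that connect the matrix to the cytoskeleton.

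Most of the 62 genes lay at similar levels in the 4 groups, and a few spread widely. The range over the 8 samples had a median of 0.46 on the log2 scale, against 0.43 over all genes, and ran from 0.17 for Mmp7 to 3.26 for Mmp8. Ranges over 1 were found for 11 of the 62 genes (17.7%), against 9.63% of all genes. These 11 were Mmp8, Mmp9, Mmp14, Mmp16, Spp1, Lox, Itga1, Lama3, Timp1, Timp3 and Col4a3. The levels of the most variable genes are drawn by sample in the plot of 12 genes.

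**Figure D1:**
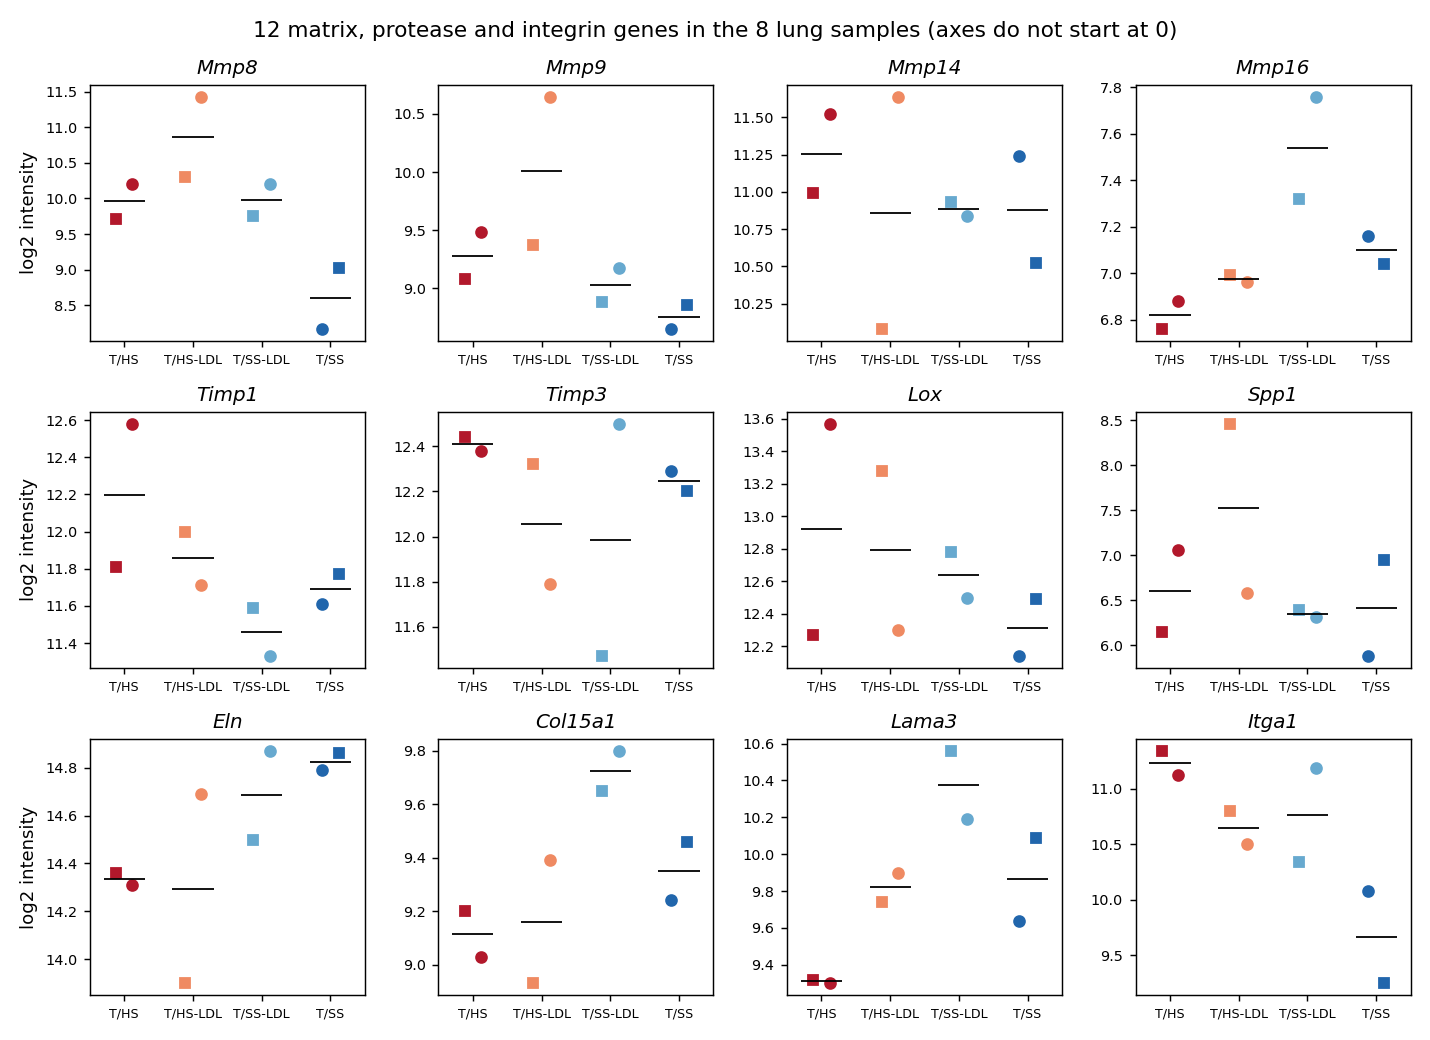
Log2 intensity of 12 genes (vertical axes, each with its own scale) in the 4 groups; squares are averages of 2 near-identical arrays, circles single arrays, and lines group means. Mmp8 ranged from 8.17 to 11.43, the T/HS values of Itga1 were above those of T/HS-LDL and T/SS, and those of Lama3 were below every other group.

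No gene of the set passed the threshold of an adjusted p of 0.05 in any of the 7 comparisons, and limma called 0.0% of the 8740 probe sets in each of them. For T/HS versus T/SS, 6 of the 62 genes had an unadjusted p under 0.05 (9.68%, against 8.61% of all genes). They were Itga1, Mmp8, Mmp12 and Itga7, higher in T/HS, and Lama3 and Lama2, lower in T/HS. Over the 62 genes the median log2 difference was -0.008, and over all genes it was -0.01. T/HS was above T/SS without overlap of the samples for 14 genes (22.6%, against 18.7% of all genes), and below it for 17 (27.4%, against 20.9%).

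For T/HS versus T/HS-LDL, the comparison of shocked lungs with the duct open and ligated, only Lama3 had an unadjusted p under 0.05 (1.61% of the set, against 6.63% of all genes). The T/HS samples lay above both T/HS-LDL samples for 9 genes (14.5%, against 17.3% of all genes) and below for 6 (9.68%, against 16.0%). The set's median difference was 0.052, and that of all genes was 0.018.

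For T/HS-LDL versus T/SS-LDL, shock with the duct ligated, 8 genes had an unadjusted p under 0.05 (12.9%, against 4.12% of all genes), the largest excess of the 4 comparisons between pairs of groups. Mmp9 was higher in T/HS-LDL, and Mmp16, Mmp11, Mmp23, Col15a1, Col5a2, Lama3 and Dcn were lower. Groups did not overlap for 6 genes higher in T/HS-LDL (9.68%, against 16.0% of all genes) and for 13 lower (21.0%, against 13.1%). The median difference was -0.04, against 0.009 over all genes. All 8 had a limma adjusted p of 0.998, as most probe sets had in this comparison.

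For T/SS-LDL versus T/SS, ligation without shock, 5 genes had an unadjusted p under 0.05 (8.06%, against 3.61% of all genes): Mmp8, Itga1, Lama3, Mmp16 and Col5a2, all higher in T/SS-LDL. The T/SS-LDL samples lay above both T/SS samples for 18 genes (29.0%, against 16.6% of all genes) and below for 13 (21.0%, against 24.0%). The median difference was 0.006, against -0.017 over all genes. This comparison shares its T/SS samples with that of T/HS versus T/SS, and its T/SS-LDL samples with that of T/HS-LDL versus T/SS-LDL.

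**Figure D2:**
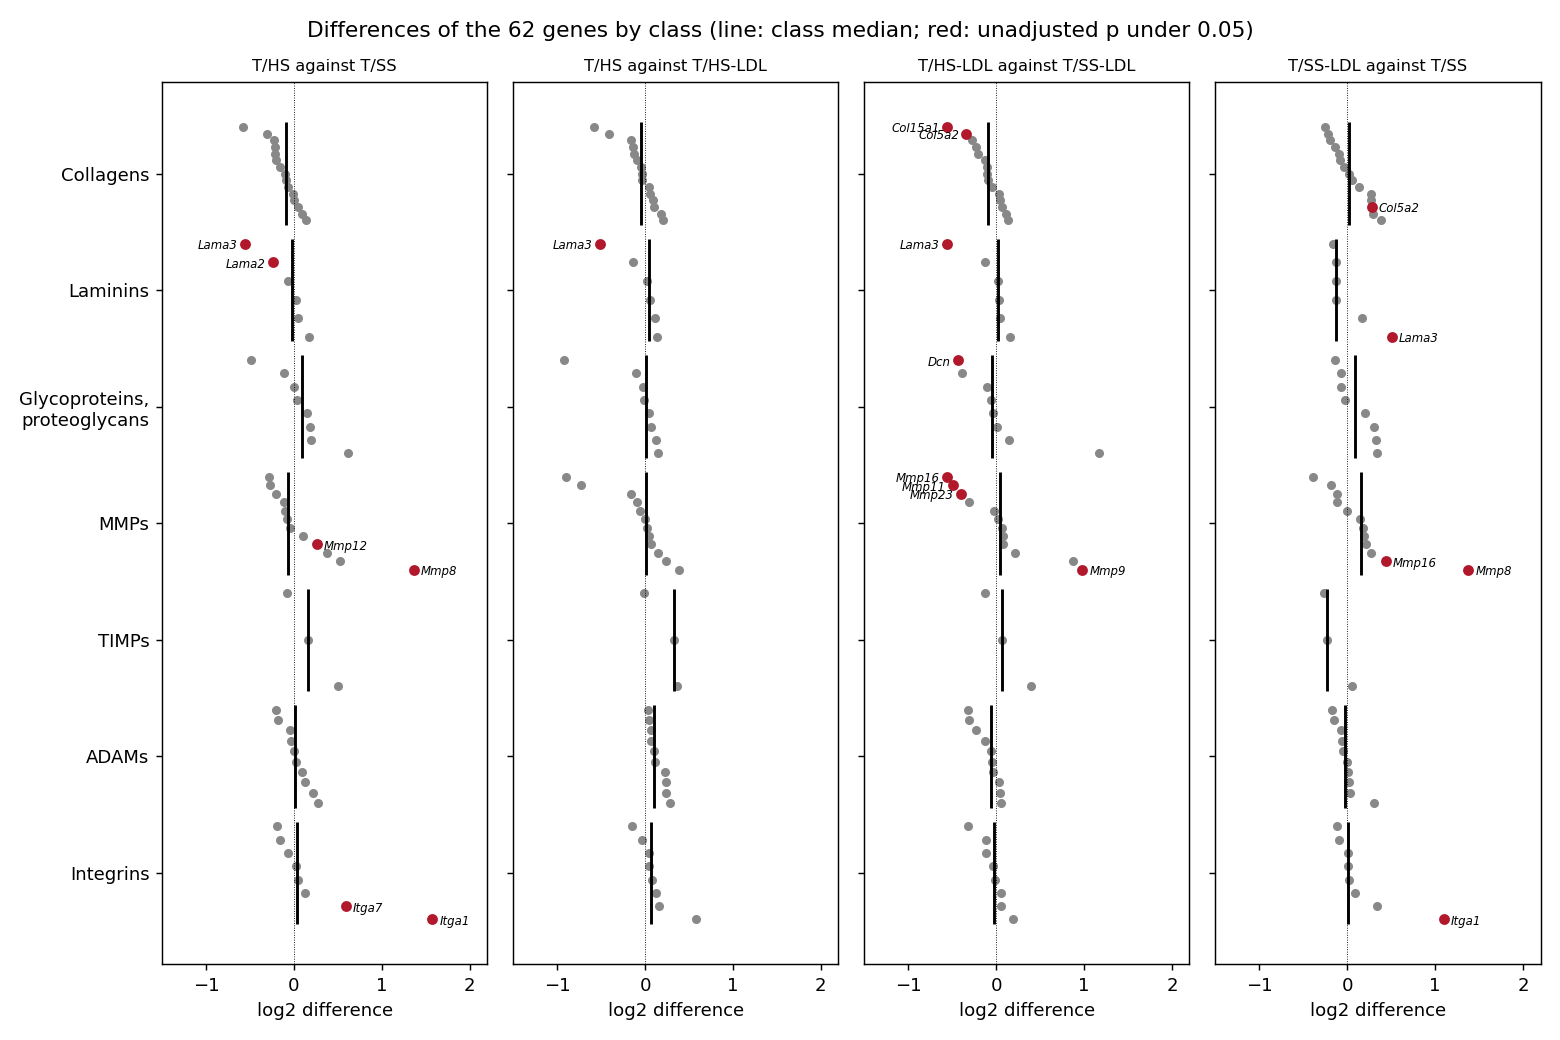
Log2 differences (horizontal axis) of all 62 genes in 4 comparisons, by class; each point is a gene, black lines are class medians, and named red points had an unadjusted p under 0.05. Itga1 and Mmp8 lie furthest to the right for T/HS versus T/SS (1.57 and 1.36), while the class medians run from -0.095 to 0.163 there.

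Over both duct states, with the 4 samples of T/HS and T/HS-LDL against the 4 of T/SS-LDL and T/SS, 13 genes had an unadjusted p under 0.05 (21.0%, against 9.54% of all genes). Shocked lungs were higher for Mmp8, Itga1, Mmp9 and Timp1, and lower for Lama3, Lama2, Mmp16, Mmp23, Mmp11, Col15a1, Col12a1, Col5a2 and Eln. All 4 shocked samples lay above all 4 sham samples for Lamc1 alone (1.61%, against 2.47% of all genes), and below for Col5a2, Lama2 and Mmp16 (4.84%, against 2.58%). The median over the set was -0.016, against 0.003 over all genes. For ligation over both shock states, Mmp8, Lama3 and Mmp16 had an unadjusted p under 0.05 (4.84%, against 7.98% of all genes), all higher with ligation. No gene of the set was higher without overlap there (0.0%, against 1.79% of all genes), and Col8a1 alone was lower (1.61%, against 2.68%). The interaction, which is the shock difference with the duct open minus that with the duct ligated, had Itga1 alone at an unadjusted p under 0.05 (1.61%, against 2.79% of all genes). Of the 37 differences with an unadjusted p under 0.05 in the 7 comparisons, 16 moved by more than 1.5 times when 1 of the 8 samples was left out, and those values are given with each gene.

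Collagens, the fibre and network proteins of the matrix, differed by small amounts after shock, and none passed the test. Of the 15 genes, 12 were below 0 for T/HS versus T/SS (80.0%, against 52.1% of all genes), with a median log2 difference of -0.095. For T/HS-LDL versus T/SS-LDL 10 were below 0 (66.7%, against 47.2% of all genes), also with a median of -0.095. T/HS samples lay below both T/SS samples for 8 collagens (53.3%, against 20.9% of all genes), namely Col4a3, Col4a5, Col12a1, Col15a1, Col5a1, Col5a2, Col2a1 and Col11a1, and above for Col10a1 (6.67%, against 18.7%). With the duct ligated, T/HS-LDL lay below T/SS-LDL without overlap for 3 collagens (20.0%, against 13.1% of all genes) and above for none (0.0%, against 16.0%). The T/HS versus T/SS differences of the 8 lower genes ran from -0.58 to -0.07, and that of Col5a2 was -0.10 ± 0.11 with groups that touched within 0.01. For Col11a1 the second probe set went the other way, by 0.18 ± 0.11, with T/HS above T/SS without overlap. That of Col2a1 gave 0.03 ± 0.12. Group means were highest in T/SS-LDL for 7 collagens (46.7%, against 23.0% of all genes) and in T/SS for 6 (40.0%, against 26.9%), and lowest in T/HS for 7 (46.7%, against 28.8%).

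Col4a3, a chain of the type IV collagen of the alveolar and glomerular basement membranes, had the widest range of the collagens. It was at 7.59 and 7.42 in T/HS, 7.60 and 8.57 in T/HS-LDL, 8.30 and 8.42 in T/SS-LDL, and 8.01 and 8.17 in T/SS. Both T/HS samples and the averaged T/HS-LDL sample were low, and T/HS-LDL replicate 2 was the highest of all. T/HS differed from T/SS by -0.58 ± 0.28 (limma adjusted p 0.604) and from T/HS-LDL by -0.58 ± 0.28 (limma adjusted p 0.775), which was -0.09 without T/HS-LDL replicate 2. Col4a5, another chain of this network, differed by -0.31 ± 0.29 for T/HS versus T/SS and by -0.41 ± 0.29 for T/HS versus T/HS-LDL, with groups that did not overlap in either.

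Col15a1, a collagen of the basement membrane zone of vessels and muscle, was at 9.20 and 9.03 in T/HS, 8.93 and 9.39 in T/HS-LDL, 9.65 and 9.80 in T/SS-LDL, and 9.46 and 9.24 in T/SS. The T/SS-LDL samples stood above all others. T/HS-LDL differed from T/SS-LDL by -0.56 ± 0.17 (limma adjusted p 0.998; -0.34 without the averaged T/HS-LDL sample), T/SS-LDL from T/SS by 0.38 ± 0.17 (limma adjusted p 0.896), and shock over both duct states by -0.40 ± 0.12 (limma adjusted p 0.411).

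Col5a2, a chain of type V collagen that is built into type I fibrils and limits their width, was at 12.45 and 12.52 in T/HS and 12.52 and 12.52 in T/HS-LDL, against 12.96 and 12.76 in T/SS-LDL and 12.52 and 12.64 in T/SS. Its T/SS-LDL samples were the high ones, and the averaged T/SS sample lay less than 0.01 above the nearest shocked sample. The difference was -0.34 ± 0.11 for T/HS-LDL versus T/SS-LDL (limma adjusted p 0.998), 0.28 ± 0.11 for T/SS-LDL versus T/SS (limma adjusted p 0.896; 0.18 without the averaged T/SS-LDL sample) and -0.22 ± 0.08 for shock over both duct states (limma adjusted p 0.472). Col12a1, which sits on the surface of collagen fibrils, showed -0.22 ± 0.08 in the last of these (limma adjusted p 0.459). Its T/HS values of 10.06 and 10.05 were below both T/SS values of 10.32 and 10.24, and its T/HS-LDL values of 10.07 and 10.30 were below both T/SS-LDL values of 10.40 and 10.43.

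The fibre-forming collagens of strong signal had small differences. Col3a1, the type III chain of elastic tissues, was at 14.30 and 14.32 in T/HS, 14.31 and 14.63 in T/HS-LDL, 14.46 and 14.57 in T/SS-LDL, and 14.12 and 14.32 in T/SS. The T/SS-LDL samples lay above the T/SS samples, and the groups overlapped in the other 3 comparisons of pairs. Col1a1, the main chain of type I collagen, was at 13.73 and 14.07 in T/HS, 13.93 and 14.15 in T/HS-LDL, 14.27 and 13.99 in T/SS-LDL, and 14.25 and 13.97 in T/SS, with overlap between every pair of groups. Its 4 probe sets gave -0.30 to 0.03 for T/HS versus T/SS and -0.28 to -0.09 for T/HS-LDL versus T/SS-LDL. Col8a1, a network collagen of vessel walls, was at 11.01 and 10.97 in T/HS and 10.95 and 10.83 in T/HS-LDL, against 10.67 and 10.89 in T/SS-LDL and 11.01 and 10.97 in T/SS. For ligation over both shock states it differed by -0.16 ± 0.08 (limma adjusted p 0.61).

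The remaining collagens had ranges over the 8 samples of 0.24 to 0.50, smaller than that of Col1a1. They are Col1a2, the partner chain of type I collagen, Col5a1, the short-chain Col10a1 of growth cartilage, Col2a1, Col9a1 and Col11a1 of cartilage, and Col26a1. The 9 measured fibroblast markers of 12 named, of which 3 were dim and none was listed at 0, summed to 36569 and 41097 intensity units in T/HS, 43945 and 44005 in T/HS-LDL, 47331 and 37113 in T/SS-LDL, and 41680 and 37826 in T/SS. The 9 smooth muscle and pericyte markers of 13, none of them dim, summed to 48376 and 40012 in T/HS, 39573 and 45535 in T/HS-LDL, 56265 and 64459 in T/SS-LDL, and 60219 and 46305 in T/SS. Smooth muscle marker sums were thus higher in both T/SS-LDL samples than in both T/HS-LDL samples. The part of either cell type in the collagen differences was not tested.

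Laminins, the cross-shaped trimers that organise basement membranes, held 1 gene that stood apart. Lama3 encodes the alpha 3 chain of the laminin that anchors epithelial cells. It was at 9.32 and 9.30 in T/HS, 9.74 and 9.90 in T/HS-LDL, 10.56 and 10.19 in T/SS-LDL, and 10.09 and 9.64 in T/SS. The T/HS samples were the lowest of all and the T/SS-LDL samples the highest, and the T/HS-LDL samples fell inside the range of T/SS. Differences were -0.56 ± 0.18 for T/HS versus T/SS (limma adjusted p 0.488), -0.51 ± 0.18 for T/HS versus T/HS-LDL (limma adjusted p 0.775), -0.56 ± 0.18 for T/HS-LDL versus T/SS-LDL (limma adjusted p 0.998) and 0.51 ± 0.18 for T/SS-LDL versus T/SS (limma adjusted p 0.896). Shock over both duct states differed by -0.56 ± 0.13 (limma adjusted p 0.329) and ligation over both shock states by 0.51 ± 0.13 (limma adjusted p 0.603). Without the averaged T/SS sample the difference of T/HS from T/SS was -0.33, and without T/SS replicate 1 that of T/SS-LDL from T/SS was 0.29. Lama3 had the smallest p of the 62 genes for shock over both duct states and for ligation over both shock states.

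Lama2, the alpha 2 chain found in muscle and nerve basement membranes, was at 8.10 and 7.93 in T/HS and 7.98 and 8.02 in T/HS-LDL, against 8.12 and 8.14 in T/SS-LDL and 8.23 and 8.29 in T/SS. Every shocked sample lay below every sham sample, though by little. The difference was -0.24 ± 0.10 for T/HS versus T/SS (limma adjusted p 0.564; -0.15 without T/HS replicate 2) and -0.19 ± 0.07 over both duct states (limma adjusted p 0.514). Lamc1, the gamma 1 chain shared by most laminins, was the one gene whose representing probe set had every shocked sample above every sham sample. It was at 11.41 and 11.62 in T/HS and 11.38 and 11.38 in T/HS-LDL, against 11.10 and 11.34 in T/SS-LDL and 11.32 and 11.37 in T/SS. Its difference over both duct states was 0.17 ± 0.09. Lamb2, the beta 2 chain, had 12.74 and 12.60 in T/HS, 12.94 and 12.68 in T/HS-LDL, 12.94 and 12.65 in T/SS-LDL, and 12.69 and 12.56 in T/SS, with overlapping groups throughout. Lama1, the embryonic alpha 1 chain, and Lama5, the alpha 5 chain of adult epithelium and vessels, had ranges of 0.34 and 0.35.

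Among the 8 matrix glycoproteins and proteoglycans, elastin had lower means in shocked lungs and osteopontin and lysyl oxidase varied between samples of a group. Eln, the elastic fibre protein of airways, vessels and alveolar walls, was at 14.36 and 14.31 in T/HS, 13.90 and 14.69 in T/HS-LDL, 14.50 and 14.87 in T/SS-LDL, and 14.86 and 14.79 in T/SS. T/HS lay below both groups of sham samples, and T/HS-LDL overlapped T/SS-LDL. The difference was -0.49 ± 0.25 for T/HS versus T/SS (limma adjusted p 0.613) and -0.44 ± 0.18 for shock over both duct states (limma adjusted p 0.536). Without the averaged T/HS-LDL sample the difference over both duct states was -0.24, and T/HS-LDL differed from T/SS-LDL by 0.01 instead of -0.39. Eln was within 10% of the highest value of the array on 3 arrays, all of sham lungs (T/SS-LDL replicate 2 and T/SS replicates 2 and 3). Signals are compressed there, so those sham levels may be too low, and the differences are given only as measured.

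Spp1, osteopontin, a matrix and cytokine-like protein bound by integrins, was at 6.15 and 7.06 in T/HS, 8.46 and 6.58 in T/HS-LDL, 6.39 and 6.31 in T/SS-LDL, and 6.95 and 5.88 in T/SS. The averaged T/HS-LDL sample stood far above all others, and T/HS overlapped T/SS. T/HS-LDL differed from T/SS-LDL by 1.17 ± 0.64 (limma adjusted p 0.998), and by 0.23 without that averaged sample. The probe set of Spp1 lay at the 10.2th percentile of signal.

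Lox, lysyl oxidase, which crosslinks collagen and elastin, had 4 probe sets. That of the strongest signal was at 12.27 and 13.57 in T/HS, 13.28 and 12.30 in T/HS-LDL, 12.78 and 12.50 in T/SS-LDL, and 12.49 and 12.14 in T/SS. In this probe set T/HS replicate 2 and the averaged T/HS-LDL sample were high, and the other sample of each of these groups lay among the sham samples. For T/HS versus T/SS the 4 probe sets gave 0.61 ± 0.47, 0.76 ± 0.50, 0.88 ± 0.33 and 0.33 ± 0.22, all in 1 direction, and without T/HS replicate 2 the first of these was -0.04. For T/HS-LDL versus T/SS-LDL they gave 0.15, -0.47, -0.23 and 0.02. In the weaker probe sets the averaged T/HS-LDL sample was at 12.68, 10.79 and 8.91, and the highest sham sample at 12.65, 10.81 and 8.94. The third probe set alone had both T/HS samples, at 10.75 and 11.59, above both T/SS samples, at 10.37 and 10.22.

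Dcn, decorin, a small proteoglycan that coats collagen fibrils, had negative shock differences in all its 4 probe sets with the duct ligated. Its main probe set had 12.68 and 12.15 in T/HS-LDL, against 12.81 and 12.88 in T/SS-LDL. T/HS had 12.51 and 12.61, against 12.46 and 12.60 in T/SS. T/HS-LDL replicate 2 was the low sample, and the T/SS-LDL samples were the highest. Without that low sample the T/HS-LDL difference from T/SS-LDL was -0.16 in the main probe set. The 4 probe sets gave -0.43, -0.38, -0.64 and -0.37 for T/HS-LDL versus T/SS-LDL (limma adjusted p 0.998 for the first, with SE 0.17), and 0.03, 0.00, 0.11 and -0.18 for T/HS versus T/SS. The difference between these 2 shock effects was 0.46 ± 0.25 for the first probe set (interaction, limma adjusted p 1.0).

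Sparc, a collagen-binding glycoprotein of remodelling tissue, gave a different answer from each probe set. The one with the highest mean was at 14.57 and 14.78 in T/HS, 14.41 and 14.79 in T/HS-LDL, 14.61 and 14.72 in T/SS-LDL, and 14.68 and 14.68 in T/SS. Its groups overlapped, and on 1 array it was within 10% of the highest value. For T/HS versus T/SS the others gave -0.28 ± 0.13, -0.66 ± 0.19 and 0.60 ± 0.14. No direction can be given for Sparc, and the deposited values do not settle which probe set measures its transcript.

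Fn1, fibronectin, the cell-adhesive glycoprotein of provisional matrix, was at 14.10 and 14.24 in T/HS, 14.16 and 14.22 in T/HS-LDL, 14.39 and 13.98 in T/SS-LDL, and 13.96 and 14.01 in T/SS. T/HS lay above T/SS by 0.18 ± 0.15 without overlap, and its 5 probe sets gave -0.08 to 0.18. The probe sets disagreed for T/HS-LDL versus T/SS-LDL. One gave -0.56 ± 0.15, with 9.94 and 9.61 in T/HS-LDL against 10.25 and 10.42 in T/SS-LDL. The main probe set gave 0.01 ± 0.15 and the others -0.08 to 0.07. Lum, lumican, a relative of decorin, was at 7.28 and 7.61 in T/SS-LDL, against 7.24 and 6.97 in T/SS, which is 0.34 ± 0.16 higher (limma adjusted p 0.896). Bgn, biglycan, another small proteoglycan, had a range of 0.29. Of the 15 genes with more than 1 probe set, all probe sets went in the same direction for 6 in T/HS versus T/SS and for 10 in T/HS-LDL versus T/SS-LDL, as the plot of probe sets shows for 5 of them.

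**Figure D3:**
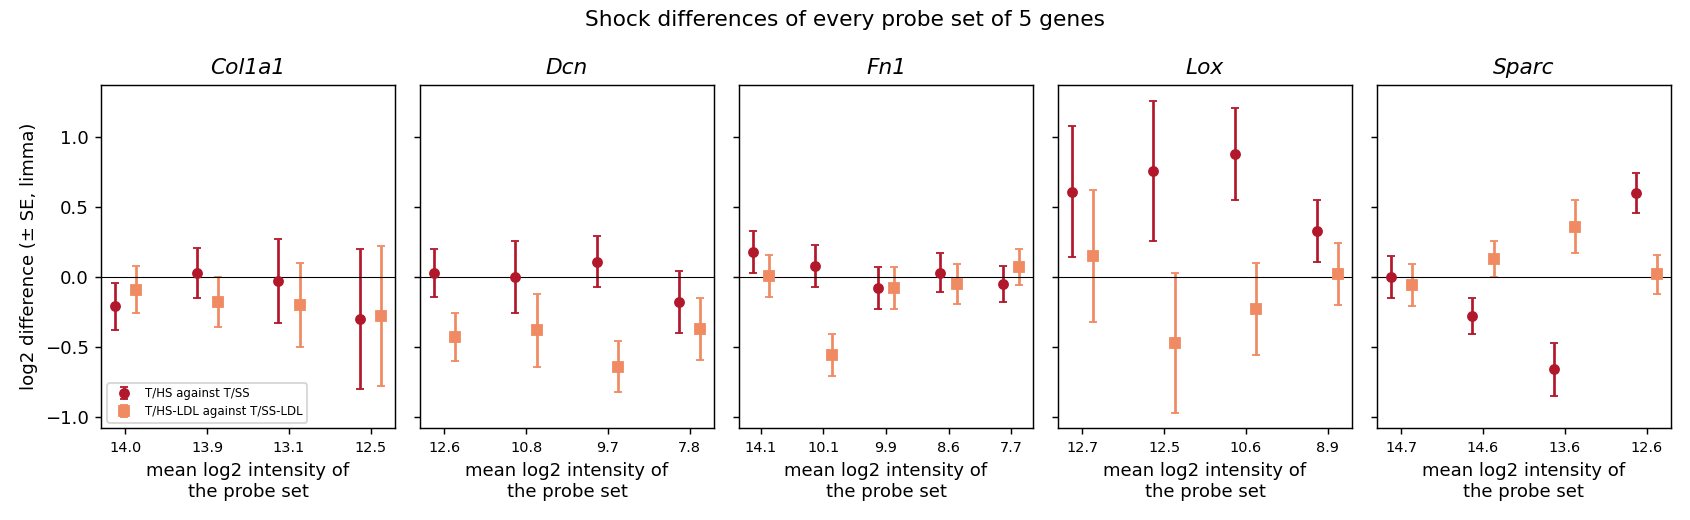
Log2 differences with standard errors (vertical axis) of every probe set of 5 genes, ordered by mean log2 intensity (horizontal axis), for T/HS versus T/SS (circles) and T/HS-LDL versus T/SS-LDL (squares). The 4 probe sets of Lox lie above 0 for T/HS versus T/SS, those of Dcn lie below 0 for T/HS-LDL versus T/SS-LDL, and those of Sparc run from -0.66 to 0.60.

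The matrix metalloproteinases held the gene of the widest range in the set, Mmp8, at 3.26 on the log2 scale. Mmp8, the collagenase stored in neutrophil granules, was at 9.71 and 10.21 in T/HS, 10.30 and 11.43 in T/HS-LDL, 9.76 and 10.20 in T/SS-LDL, and 9.03 and 8.17 in T/SS. T/SS was the low group, T/HS-LDL the high one, and T/HS and T/SS-LDL covered nearly the same range between them. T/HS was above T/SS by 1.36 ± 0.43, or 2.57-fold (limma adjusted p 0.482), and T/SS-LDL was above T/SS by 1.38 ± 0.43, or 2.60-fold (limma adjusted p 0.896). T/HS was below T/HS-LDL by a difference of -0.90 ± 0.43 (limma adjusted p 0.775), and T/HS-LDL was above T/SS-LDL by 0.88 ± 0.43 (limma adjusted p 0.998). Without T/HS-LDL replicate 2 these were -0.34 and 0.32. Over both states of the other factor, shock differed by 1.12 ± 0.31 (limma adjusted p 0.374) and ligation by 1.14 ± 0.31 (limma adjusted p 0.603).

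Mmp9, gelatinase B, another granule protease that cuts type IV collagen and denatured collagens, was at 9.08 and 9.48 in T/HS, 9.37 and 10.65 in T/HS-LDL, 8.88 and 9.17 in T/SS-LDL, and 8.86 and 8.65 in T/SS. Shocked samples were above sham samples in each duct state, and T/HS overlapped T/SS-LDL. T/HS-LDL was above T/SS-LDL by 0.98 ± 0.39 (limma adjusted p 0.998), T/HS above T/SS by 0.52 ± 0.39, and shock over both duct states gave 0.75 ± 0.27 (limma adjusted p 0.498). Without T/HS-LDL replicate 2, the highest sample, the difference of T/HS-LDL from T/SS-LDL was 0.34 and that of shock over both duct states was 0.43.

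Neutrophil markers lay in a similar order. Of the 17 named, 7 were measured (S100a8, S100a9, Lcn2, Il1r2, Fgr, Cxcr2 and Defa5), 2 of them dim, and none was listed at 0. Their intensities summed to 36167 and 70714 in T/HS, 61525 and 68221 in T/HS-LDL, 43428 and 32299 in T/SS-LDL, and 26515 and 21294 in T/SS. The sums were highest in T/HS-LDL and in T/HS replicate 2 and lowest in T/SS. In the sums T/HS and T/SS-LDL overlapped, as they did for Mmp8. Averaged as log2 differences from the T/SS mean, the 7 markers gave 0.59 and 1.23 in T/HS, against 0.42 and 0.41 in T/SS-LDL. By that measure these 2 groups did not overlap. The part of neutrophil number in the Mmp8 and Mmp9 values was not tested.

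**Figure D4:**
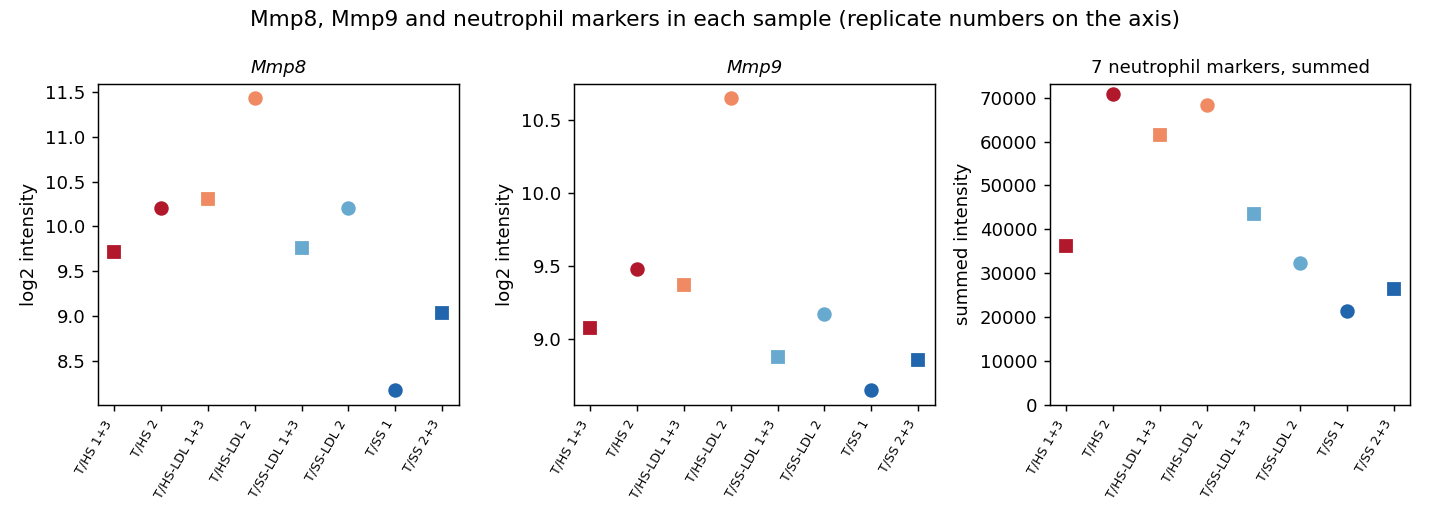
Log2 intensity of Mmp8 and Mmp9 and the summed intensity of 7 neutrophil markers (vertical axes; the axis of the sum starts at 0) in each of the 8 samples (horizontal axis, with replicate numbers; squares are averages of 2 near-identical arrays, circles single arrays). T/SS has the lowest values in all 3 panels, and T/HS-LDL replicate 2 has the highest Mmp8 and Mmp9.

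Mmp16, a membrane-anchored metalloproteinase, went the other way from Mmp8 after shock. It was at 6.76 and 6.88 in T/HS and 6.99 and 6.96 in T/HS-LDL, against 7.32 and 7.76 in T/SS-LDL and 7.04 and 7.16 in T/SS. All 4 shocked samples lay below all 4 sham samples, with T/SS-LDL highest. The differences were -0.56 ± 0.16 for T/HS-LDL versus T/SS-LDL (limma adjusted p 0.998), 0.44 ± 0.16 for T/SS-LDL versus T/SS (limma adjusted p 0.896), -0.42 ± 0.11 for shock over both duct states (limma adjusted p 0.359) and 0.30 ± 0.11 for ligation over both shock states (limma adjusted p 0.603). Without T/SS-LDL replicate 2, the highest sample, the first of these was -0.34, the second 0.22 and that of ligation 0.19. Its probe set lay at the 15.1th percentile of signal.

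Mmp11, stromelysin 3 of stromal cells, and Mmp23, a small metalloproteinase without the usual cysteine switch, also had lower means in shocked lungs. Mmp11 was at 9.74 and 9.25 in T/HS and 9.41 and 9.29 in T/HS-LDL, against 9.73 and 9.95 in T/SS-LDL and 9.53 and 9.86 in T/SS. Mmp23 was at 9.61 and 9.33 in T/HS and 9.38 and 9.73 in T/HS-LDL, against 9.86 and 10.04 in T/SS-LDL and 9.71 and 9.76 in T/SS. For both genes T/HS-LDL lay below T/SS-LDL without overlap. For Mmp11, T/HS overlapped T/SS. The difference of T/HS-LDL from T/SS-LDL was -0.49 ± 0.19 for Mmp11 and -0.40 ± 0.16 for Mmp23 (limma adjusted p 0.998 for each). Over both duct states it was -0.35 ± 0.14 for Mmp11 (limma adjusted p 0.534) and -0.33 ± 0.11 for Mmp23 (limma adjusted p 0.459). Without T/HS replicate 2 the value over both duct states was -0.22 for Mmp11. Without the averaged T/HS-LDL sample the Mmp23 difference of T/HS-LDL from T/SS-LDL was -0.22.

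Mmp14, the membrane protease that activates the precursor of Mmp2, was at 10.99 and 11.52 in T/HS, 10.08 and 11.64 in T/HS-LDL, 10.93 and 10.84 in T/SS-LDL, and 10.52 and 11.24 in T/SS. The T/HS-LDL samples held both its lowest and its highest value. Mmp2, gelatinase A of stromal cells, was at 12.12 and 12.12 in T/HS, 11.93 and 12.17 in T/HS-LDL, 12.18 and 11.49 in T/SS-LDL, and 12.06 and 12.39 in T/SS, with overlap between every pair of groups. Neither gene's main probe set separated the groups in any of the 4 comparisons of pairs, although Mmp14 ranged over 1.56 on the log2 scale. The second probe set of Mmp2 was at 9.65 and 9.53 in T/SS-LDL. It was lower there than in T/SS, at 9.83 and 9.98, without overlap (-0.31 ± 0.13). T/HS-LDL, at 9.82 and 9.70, lay above T/SS-LDL by 0.17 ± 0.13, also without overlap. The main probe set went the same ways, by -0.39 ± 0.23 and 0.22 ± 0.23.

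Mmp8 is 1 of 6 genes of the set that lie in a row of metalloproteinase genes on chromosome 8, in the order Mmp13, Mmp12, Mmp3, Mmp10, Mmp8 and Mmp7 with other genes of the family between them. They share a location and a gene family, and their values differed: Mmp8 ranged over 3.26 on the log2 scale, and the other 5 over 0.17 to 0.48. The last 100 bases before the start of transcription are shown because promoters of this family are known, from human genes, for an AP-1 site, the binding site of the Fos and Jun factors. Capitals mark the letters TGANTCA, which read the same on both strands and were the only motif searched. They are from RefSeq, build GRCr8, plus strand, at chr8:12782729-12782828 for Mmp13, chr8:12866552-12866651 for Mmp12, chr8:12925181-12925280 for Mmp3, chr8:12974607-12974706 for Mmp10, chr8:13008790-13008889 for Mmp8 and chr8:13132943-13133042 for Mmp7.
Mmp13: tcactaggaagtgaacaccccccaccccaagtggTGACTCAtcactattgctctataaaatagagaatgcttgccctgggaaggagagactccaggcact
Mmp12: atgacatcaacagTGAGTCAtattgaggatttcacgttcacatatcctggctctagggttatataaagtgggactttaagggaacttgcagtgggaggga
Mmp3: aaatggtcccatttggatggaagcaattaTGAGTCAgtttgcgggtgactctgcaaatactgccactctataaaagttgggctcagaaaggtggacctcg
Mmp10: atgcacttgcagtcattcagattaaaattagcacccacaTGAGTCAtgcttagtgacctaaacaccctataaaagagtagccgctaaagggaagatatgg
Mmp8: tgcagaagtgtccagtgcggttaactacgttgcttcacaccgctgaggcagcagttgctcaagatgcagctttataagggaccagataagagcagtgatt
Mmp7: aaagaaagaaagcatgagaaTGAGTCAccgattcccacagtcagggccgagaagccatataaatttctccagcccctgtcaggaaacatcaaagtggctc
The match starts at -66 from the start site in Mmp13, -87 in Mmp12, -71 in Mmp3, -61 in Mmp10 and -80 in Mmp7. The Mmp8 window held none, also over the full 250 bases before its start, which says only that these letters are not in this window. Of 39 genes of the set that had a promoter sequence, 6 held the letters in those 250 bases (15.4%), against 2122 of 33469 promoters (6.34%). All of the 6 but 1 were neighbouring, related genes of the chromosome 8 row, so this share does not speak for the rest of the set. The sixth was Lama3, with matches at -240, -92 and -36 on chromosome 18, shown over 250 bases because it is the gene of the set with 3 matches (chr18:3952517-3952766, plus strand, GRCr8).
Lama3: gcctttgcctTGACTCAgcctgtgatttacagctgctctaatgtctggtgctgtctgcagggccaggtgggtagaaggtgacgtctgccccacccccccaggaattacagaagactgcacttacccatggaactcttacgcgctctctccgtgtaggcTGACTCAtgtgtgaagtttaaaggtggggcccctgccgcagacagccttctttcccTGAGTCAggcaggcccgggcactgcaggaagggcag
A match of letters is a description of the sequence and was set against no measurement of binding.

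The other genes of the chromosome 8 row had small differences. Mmp12, the elastase of macrophages, was at 6.99 and 6.91 in T/HS, 6.92 and 7.0 in T/HS-LDL, 6.97 and 6.79 in T/SS-LDL, and 6.76 and 6.63 in T/SS. T/SS was the low group, and T/HS was above it by 0.26 ± 0.11 (limma adjusted p 0.564). The 7 measured markers of monocytes and macrophages of 14 named, none listed at 0, summed to 49796 and 57688 in T/HS, 47229 and 54540 in T/HS-LDL, 47589 and 45853 in T/SS-LDL, and 44520 and 47147 in T/SS. Both T/HS sums were above both T/SS sums. Of the 7 markers, 5 had a higher and 2 a lower mean in T/HS than in T/SS. Lyz2 was at 14.94 and 14.94 in T/HS and 14.92 and 14.98 in T/SS, at the highest values of the arrays. Signals are compressed there, which limits the sums. The part of these cells in the Mmp12 difference was not tested. Mmp13, Mmp3, Mmp10 and Mmp7, a collagenase, both stromelysins and matrilysin, differed by -0.10 to 0.10 for T/HS versus T/SS. Probe sets of Mmp10, Mmp12 and Mmp13 were dim.

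Tissue inhibitors of metalloproteinases were led by Timp1, the inducible inhibitor. It was at 11.81 and 12.58 in T/HS and 12 and 11.71 in T/HS-LDL, against 11.59 and 11.33 in T/SS-LDL and 11.77 and 11.61 in T/SS. T/HS replicate 2 was the highest sample, and only the lower T/HS-LDL sample overlapped the sham samples. Its T/HS mean was above T/SS by 0.50 ± 0.25 (limma adjusted p 0.608), T/HS-LDL above T/SS-LDL by 0.40 ± 0.25 (limma adjusted p 0.998), and shock over both duct states gave 0.45 ± 0.18 (limma adjusted p 0.535). Without T/HS replicate 2 the difference of T/HS from T/SS was 0.11 and that over both duct states 0.25. Its second probe set gave 0.85 ± 0.39 for T/HS versus T/SS and 0.33 ± 0.39 for T/HS-LDL versus T/SS-LDL. For T/SS-LDL versus T/SS the main probe set gave -0.23 ± 0.25 and the second 0.18.

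Timp3, the inhibitor that stays bound to the matrix and also blocks Adam17, was at 12.44 and 12.38 in T/HS, 12.32 and 11.79 in T/HS-LDL, 11.47 and 12.50 in T/SS-LDL, and 12.20 and 12.29 in T/SS. The T/SS-LDL samples held both extremes. The T/HS samples exceeded T/HS-LDL by 0.36 ± 0.33 without overlap (limma adjusted p 0.84). Timp2, the steadily expressed inhibitor, was at 13.96 and 13.66 in T/HS, 13.96 and 13.67 in T/HS-LDL, 13.95 and 13.93 in T/SS-LDL, and 13.82 and 13.95 in T/SS, and no pair of groups was separated.

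Genes of the ADAM family showed small differences that went the same way for T/HS versus T/HS-LDL. The T/HS mean exceeded the T/HS-LDL mean for all 10 (100.0%, against 54.1% of all genes), by 0.03 to 0.28 with a median of 0.105, against a median of 0.018 over all genes. The T/HS samples lay above T/HS-LDL without overlap for 3 of them (30.0%, against 17.3% of all genes), Adam18 (0.24 ± 0.13, limma adjusted p 0.78), Adam7 (0.24 ± 0.12) and Adam6 (0.23 ± 0.12). T/HS-LDL had the lowest group mean for 7 of the 10 genes, against 19.9% of all genes. The probe sets of 4 ADAM genes were dim, and most of the 10 are known from the testis or epididymis.

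Adam17, the enzyme that releases tumour necrosis factor from the cell surface, was at 9.86 and 10.20 in T/HS and 9.84 and 10.01 in T/HS-LDL, against 10.03 and 10.44 in T/SS-LDL and 10.25 and 10.19 in T/SS. T/HS-LDL lay below both T/SS-LDL samples by a difference of -0.31 ± 0.17, and T/HS overlapped T/SS. Adam10, which sheds Notch and cadherins, was at 9.56 and 9.46 in T/HS, 9.68 and 9.27 in T/HS-LDL, 9.23 and 9.66 in T/SS-LDL, and 9.37 and 9.61 in T/SS, with overlapping groups throughout. Adam7, an epididymal member, was above T/SS in T/HS by 0.22 ± 0.12 (limma adjusted p 0.637), with 8.92 and 8.74 in T/HS against 8.64 and 8.58 in T/SS. Adam4, with the widest range of the class, was at 6.47 and 6.84 in T/HS, 6.26 and 6.48 in T/HS-LDL, 6.74 and 6.65 in T/SS-LDL, and 6.58 and 6.18 in T/SS. It differed by -0.32 ± 0.18 for T/HS-LDL versus T/SS-LDL (limma adjusted p 0.998) and by 0.31 ± 0.18 for T/SS-LDL versus T/SS (limma adjusted p 0.896). Adam1a, Adam2 and Adam3a, known from sperm, and Adam5, Adam6 and Adam18 had ranges of 0.26 to 0.48.

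Integrins were led by Itga1, the alpha 1 chain that pairs with the beta 1 chain to bind collagens, above all type IV. It was at 11.34 and 11.12 in T/HS, 10.80 and 10.50 in T/HS-LDL, 10.34 and 11.19 in T/SS-LDL, and 9.25 and 10.08 in T/SS. T/SS was low in both samples, T/HS lay above T/HS-LDL and T/SS, and of the T/SS-LDL samples one lay below T/HS-LDL and the other within the range of T/HS. T/HS was above T/SS by 1.57 ± 0.35, or 2.96-fold, which gave the smallest p of the 62 genes there (limma adjusted p 0.373). The T/HS mean lay above T/HS-LDL by 0.58 ± 0.35 (limma adjusted p 0.78), and T/SS-LDL above T/SS by 1.10 ± 0.35, or 2.14-fold (limma adjusted p 0.896; 0.68 without T/SS-LDL replicate 2). T/HS-LDL differed from T/SS-LDL by -0.12 ± 0.35, so that the interaction was 1.68 ± 0.49 (limma adjusted p 1.0). Shock over both duct states gave 0.72 ± 0.24 (limma adjusted p 0.461). Leaving out 1 sample at a time, the difference of T/HS from T/SS ran from 1.15 to 1.98. Fitted to the 12 arrays with the sample as a random block, it was the 1 difference of the set to pass, at a limma adjusted p of 0.0433. The share of all probe sets that passed in that fit is not given here.

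Itga7, the alpha 7 chain of the laminin receptor of muscle, was at 11.61 and 11.44 in T/HS, 11.26 and 11.68 in T/HS-LDL, 11.63 and 10.93 in T/SS-LDL, and 11.03 and 10.84 in T/SS. T/HS lay above T/SS by 0.59 ± 0.25 (limma adjusted p 0.568), and T/HS-LDL overlapped T/SS-LDL. Its other 2 probe sets gave 0.26 ± 0.15 and 0.18 ± 0.21 for T/HS versus T/SS. The 11 heart muscle markers, all measured and 2 of them dim with none listed at 0, summed to 26580 and 22374 in T/HS, 21854 and 8084 in T/HS-LDL, 24945 and 28906 in T/SS-LDL, and 11614 and 24002 in T/SS. The averaged T/SS sample and T/HS-LDL replicate 2 were low, and the part of heart muscle in the Itga7 difference was not tested.

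The shared beta 1 chain, Itgb1, was at 13.80 and 14.06 in T/HS, 14.13 and 14.04 in T/HS-LDL, 14.15 and 14.04 in T/SS-LDL, and 14.19 and 13.98 in T/SS. Its groups overlapped in every comparison, whereas Itga1 spread over 2.09 on the log2 scale. Itga8, an alpha chain of mesenchymal cells, was above both T/HS-LDL and T/SS in T/HS, by 0.16 ± 0.11 and 0.13 ± 0.11. Itga2b, the platelet fibrinogen receptor chain, differed by -0.19 ± 0.18 for T/HS versus T/SS without overlap. Itgb3, its partner, Itgb4, the epithelial receptor chain for the laminin that holds the Lama3 chain, and Itgb7 of lymphocytes had ranges of 0.31 to 0.36. The weaker probe set of Itgb7 had every shocked sample above every sham sample, by 0.20 ± 0.07 over both duct states. Its main probe set gave 0.05 ± 0.11 there.

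Genes of 5 related groups that are outside the set were counted beside it, and none passed the adjusted threshold in limma. The 9 measured matrix-processing and crosslinking enzymes had a median of -0.095 for T/HS versus T/SS and none with an unadjusted p under 0.05. Plod2, a collagen lysyl hydroxylase, was at 10.18 and 10.44 in T/HS, against 10.07 and 9.70 in T/SS, a difference of 0.43 ± 0.19. Plod1, the main lysyl hydroxylase, differed by -0.20 ± 0.13 and P4hb, a subunit of prolyl hydroxylase, by 0.14 ± 0.10.

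The 24 other matrix glycoproteins and proteoglycans had a median of -0.033 for T/HS versus T/SS, with 1 higher and 1 lower at an unadjusted p under 0.05 (8.33% of the list, against 8.61% of all genes). The higher one was Vcan, versican, the large proteoglycan of provisional matrix, at 8.93 and 10 in T/HS and 9.45 and 9.22 in T/HS-LDL, against 8.27 and 8.35 in T/SS-LDL and 8.29 and 8.11 in T/SS. All 4 shocked samples lay above all 4 sham samples, and the differences were 1.27 ± 0.31 for T/HS versus T/SS (limma adjusted p 0.417) and 1.03 ± 0.31 for T/HS-LDL versus T/SS-LDL (limma adjusted p 0.998). The lower one was Sdc2, a syndecan of cell surfaces, at 9.58 and 9.60 in T/HS, against 9.99 and 9.93 in T/SS (-0.37 ± 0.11, limma adjusted p 0.455). Efemp1, an elastic-fibre associated fibulin, differed by -0.55 ± 0.24.

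The 17 measured genes of the transforming growth factor beta pathway, which drives matrix production, had a median of -0.082 for T/HS versus T/SS, with 1 higher and none lower at an unadjusted p under 0.05 (5.88%, against 8.61% of all genes). That one was Fst, follistatin, which binds activins, at 11.12 and 12.15 in T/HS and 10.54 and 10.74 in T/HS-LDL, against 10.58 and 10.53 in T/SS-LDL and 10.49 and 10.32 in T/SS. T/HS was above the samples of every other group, by 1.23 ± 0.30 against T/SS (limma adjusted p 0.417). Acvrl1, a receptor of endothelium, differed by -0.66 ± 0.28 and Ltbp1, which stores the growth factor in the matrix, by -0.28 ± 0.14.

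The 15 genes of the plasmin system and cathepsins had a median of 0.011 for T/HS versus T/SS, with 2 higher and none lower at an unadjusted p under 0.05 (13.3%, against 8.61% of all genes). Ctss, the cathepsin of antigen-presenting cells and also a gene of the macrophage marker list, was at 13.32 and 13.53 in T/HS, against 12.74 and 12.96 in T/SS (0.58 ± 0.15, limma adjusted p 0.417). Ctsk, a collagen-cutting cathepsin, was above T/SS by 0.24 ± 0.10 (limma adjusted p 0.558), and Ctsc, which activates granule proteases, differed by -0.19 ± 0.17. Adhesion proteins linked to integrins, 12 measured, had a median of -0.266 for T/HS versus T/SS with 9 below 0 (75.0%, against 52.1% of all genes), and of -0.172 for T/HS-LDL versus T/SS-LDL with 11 below 0 (91.7%, against 47.2% of all genes). Of these 12, 1 had an unadjusted p under 0.05 for T/HS versus T/SS (8.33%, against 8.61% of all genes), and it was lower. That one was Cd151, a tetraspanin partner of integrins, at 12.80 and 12.60 in T/HS, against 13.03 and 12.94 in T/SS (-0.28 ± 0.11, limma adjusted p 0.563). Lims1, an adaptor of integrin-linked kinase, differed by -0.29 ± 0.13 and Actn4, an actinin, by -0.44 ± 0.21.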

How the data were processed

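Expression was measured in rat lung on 12 one-colour Affymetrix RG-U34A arrays. The deposited values are intensity per probe set on a linear scale; per the submitters' processing notes the authors used RMA, which corrects background, normalises between arrays and summarises probes (version not given). Log2 of each value was taken with no further scaling. Array controls (59) were left out. Of 8740 probe sets, the platform's annotation gave 7006 a single symbol, 308 several and 1426 none. All 62 gene IDs and symbols matched RefSeq.

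Arrays of a group with a robust SD of log2 differences under 0.1 were averaged, leaving 8 samples. Limma 3.58.1 in R 4.3.3 (lmFit, eBayes) was fitted to all 4 groups together, with 4 residual degrees of freedom and a moderated spread (2.85 prior degrees, SD 0.131). Tests were two-sided, with Benjamini-Hochberg adjustment over 8740 probe sets. The procedure was run on simulated data with independent noise and added T/HS differences larger than most of those given here. Its outcome is not given, and it does not measure the power for small differences. The number of arrays limits the precision.

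Named with values were, in each comparison, genes with an unadjusted p under 0.05 and, of each class, the largest difference among groups that did not overlap, in each class the 2 genes of highest signal and the 1 of largest range, and the 3 smallest p of each related list for T/HS versus T/SS. Other genes were named after their values were seen. The members and lists were chosen with earlier results of these data known.

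Same-numbered arrays were checked for pairing: their deviations from group means correlated above 0.1 in 3 of 18 pairs (r -0.166 to 0.189), so the numbers were not taken to pair samples. Alternatives were all 12 arrays as separate samples, the sample as a random block, a replicate block, the first array of each averaged pair, quantile normalisation, an offset of 50 before log2, leaving out dim probe sets, the mean of a gene's probe sets, and leaving out each sample.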

Additional observations from a re-analysis of the deposited data

Results flagged for a closer look

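Mmp7, matrilysin, an epithelial metalloproteinase, had shock differences of opposite sign in the open and the ligated duct state, each close in size to its standard error. It was at 8.45 and 8.36 in T/HS, against 8.53 and 8.48 in T/SS, and at 8.50 and 8.42 in T/HS-LDL, against 8.41 and 8.38 in T/SS-LDL. The shock difference with the duct open was -0.10 ± 0.09 and with the duct ligated 0.07 ± 0.09, and neither pair of groups overlapped. The difference between them was -0.17 ± 0.13 on the log2 scale, which limma's interaction did not call (adjusted p 1.0). Mmp7 also had the narrowest range over the 8 samples of the 62 genes, 0.17. Of all genes, 20.9% were lower without overlap for T/HS versus T/SS. For T/HS-LDL versus T/SS-LDL, 16.0% were higher without overlap. The share of all genes with both is not given here, so the pattern does not set Mmp7 apart.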

How the results depend on the processing

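With 8 samples limma called 0 of the 62 genes in all 7 comparisons. With the 12 arrays as separate samples it called 3 for T/HS versus T/SS (Itga1, Lama3 and Adam5), 3 for T/HS-LDL versus T/SS-LDL (Col15a1, Lama3 and Col5a2), 1 for T/SS-LDL versus T/SS (Col5a2), 10 for shock over both duct states and 5 for ligation over both shock states. That setting counts near-identical arrays as independent. The sample as a random block called 1 for T/HS versus T/SS (Itga1, limma adjusted p 0.0433). The replicate block, run on 12 arrays, called 4 for T/HS versus T/SS, 10 for shock and 2 for ligation over both states. It too counts near-identical arrays as independent. How many of all probe sets passed in these settings is not given here, so the counts describe no trait of the set. The other alternatives, among them each sample left out, called none of the 62.

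Medians of the 62 genes were close to 0 and moved with the settings: with 12 arrays, with or without the replicate block, they were -0.023 for T/SS-LDL versus T/SS and 0.007 for shock, and without dim probe sets -0.03 for T/HS versus T/SS. Leaving out 1 sample at a time, they ran from -0.044 to 0.017 for T/HS versus T/SS, -0.01 to 0.063 for T/HS versus T/HS-LDL, -0.109 to -0.015 for T/HS-LDL versus T/SS-LDL, -0.022 to 0.04 for T/SS-LDL versus T/SS, -0.015 to 0.1 for the interaction and -0.043 to 0.012 for shock. The cause was not tested. No direction of the set as a whole is therefore given. Of 37 differences with an unadjusted p under 0.05, none was reversed in 587 alternatives, and 21 passed the threshold in some alternative. The alternatives refit the values by which the 37 were picked, so a kept sign is no support. Every pass came from a fit to the 12 arrays. All but that of Itga1 with the random block counted near-identical arrays as independent. Dim probe sets limit 12 genes, and 2 samples per group limit every comparison.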
